A study of Mus musculus with 6 samples.

Results

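The genes described here encode integrin subunits and the proteins that tie integrins to the actin cytoskeleton at focal adhesions. They were taken as a list of 43 gene symbols, chosen with earlier results of these data known. All 43 occur in the deposited table of 22482 protein-coding genes. By role they comprise 15 integrin subunits, 14 core adaptors and kinases, 6 adaptors with LIM domains (zinc-binding protein interaction modules) and 8 actin crosslinkers or actin-binding proteins. A gene was tested where its level was at least 0.5 FPKM (fragments per kilobase of transcript, scaled to the depth of the library) in at least 3 of the 6 libraries. That held for 37 members, and the other 6, all alpha integrin subunits, are given by their values.

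Integrins are receptors made of an alpha and a beta chain that bind extracellular matrix proteins outside the cell. Talin and kindlin bind the tail of the beta chain and activate the receptor, and vinculin, paxillin, the ILK complex and zyxin-family proteins then build the plaque to which actin filaments attach. In smooth muscle these sites carry the force of contraction between the actin filaments and the matrix. Serum response factor (SRF), the partner of myocardin, binds a DNA element called the CArG box that lies near many smooth muscle and cytoskeletal genes, vinculin among them.

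The cells were aortic vascular smooth muscle cells of C57BL/6 mice, cultured with 10% serum and analysed 48 h after adenovirus was given. A first group of 3 libraries carries the labels ADV and Myocd knockdown, and the other 3 carry the labels Ctrl and negative control virus, although the design text names the latter wildtype. Nothing in the labels tells whether replicates are different cultures or animals, and the p-values therefore reflect only how these libraries vary, which may be technical. Myocd itself went against the labels, with 131.7, 130.1 and 145.5 FPKM under the knockdown label and 0.0355, 0 and 0.125 FPKM under the control label. Directions below always set the knockdown label against the control label, so that "higher" means higher where Myocd was higher.

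The depth was 7528153 to 9793782 recovered fragments per library. Replicate 3 of both groups stood apart. In edgeR, with the group kept as a term, 254 of 11563 tested genes differed between replicate 3 and the rest. The same fit gave 0 genes for replicate 1 and 1 gene for replicate 2. Of the 39 members tested there, 3 were among the 254 genes, Itga6 and Lims1 lower and Tln1 higher in replicate 3. Of the smooth muscle markers Acta2 averaged 340.2 against 67.2 FPKM, Des 124.0 against 108.0 and Smtn 56.5 against 57.6. Much lower were Tagln (7.52 against 0.637), Lmod1 (0.733 against 0.0774), Cnn1 (0.275 against 0.027) and Myh11 (0.0604 against 0.0132). The labelled cell type is thus borne out only in part. The 4 mesothelial markers summed to 302.2 to 324.6 FPKM in the libraries labelled knockdown and 320.0 to 351.5 in those labelled control, mostly Krt19 and Msln. The 7 smooth muscle markers summed to 511.9 to 538.9 against 221.7 to 245.8 FPKM. The 5 endothelial markers summed to at most 2.34 against at most 1.01 FPKM, with Vwf called higher by limma, and 4 leukocyte markers to 3.44 to 5.53 against 2.02 to 4.48 FPKM, nearly all Cd68. The 4 fibroblast markers summed to 57.9 to 67.8 against 57.9 to 67.5 FPKM, and the epithelial marker Epcam was at 0 in all libraries. The part of other cell types in the results below was not tested.

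Of the members 6 rose and 0 fell. Plastin 3 (Pls3), filamin A (Flna), vinculin (Vcl), the LIM proteins Lpp and Pdlim5, and integrin alpha 5 (Itga5) were between 1.18-fold and 1.41-fold higher by the ratio of mean FPKM, and in each of the 6 the libraries of the groups did not overlap. The other 31 tested members did not pass in limma at an adjusted p of 0.05. Across all 11612 tested genes 3.44% were called, 1.83% as higher and 1.61% as lower (213 and 187 genes, or 266 and 150 when each library was centred on its median). The members are mostly abundant, 35 of 37 averaging at least 10 FPKM, and among the 6899 genes at that level 4.68% were called, 2.57% as higher and 2.12% as lower. At an unadjusted limma p under 0.05 there were 14 members higher and 5 lower, where 22.4% of all tested genes passed, 10.2% as higher and 12.2% as lower. In bulk RNA a smaller number of cells with a transcript and less transcript per cell cannot be told apart.

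The fitted changes of the 6 ran from 0.24 to 0.50 on the log2 scale. Lpp and Flna lost the limma call whenever any single library was left out. Pls3 was called in each of 19 other settings. It was the only member called when knockdown 1, knockdown 2, control 1 or control 2 was left out, and also without both replicate 3 libraries. Without control 3 the calls were Itga5, Pls3 and Vcl, and without knockdown 3 they were Itga5, Pdlim5, Pls3 and Vcl. On recovered fragments, edgeR called all 6 and added Actn1, Actn4, Fblim1, Lims1, Parva, Svil and Tns1, all higher (13 of 39 tested), where it called 9.95% of all tested genes, 5.45% as higher and 4.5% as lower. DESeq2 called 12 members higher, the edgeR set without Svil, and 1, Itga6, lower, where it called 9.37% of all genes it tested, 5.19% as higher and 4.19% as lower.

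By role, the fitted changes were centred at different places. Actin crosslinkers had a median log2 fold change of 0.18, and all 8 were above 0. Adaptors had a median of 0.09 over 20 members, made up of 0.19 for the 6 LIM-domain adaptors (5 above 0) and 0.05 for the 14 core adaptors and kinases (8 above 0). The 9 tested integrin subunits had a median of 0.00037, with 5 above 0 and 4 below, beside -0.01 for all tested genes. In the plot of fitted changes the crosslinkers lie to the right of 0 as a block, while integrins and core adaptors lie on both sides. These medians are descriptions of the list. The integrin median changed sign between settings, from -0.03 to 0.05. Among the crosslinkers Enah alone was below 0 in any setting, in 2 of 19.

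**Figure D1:**
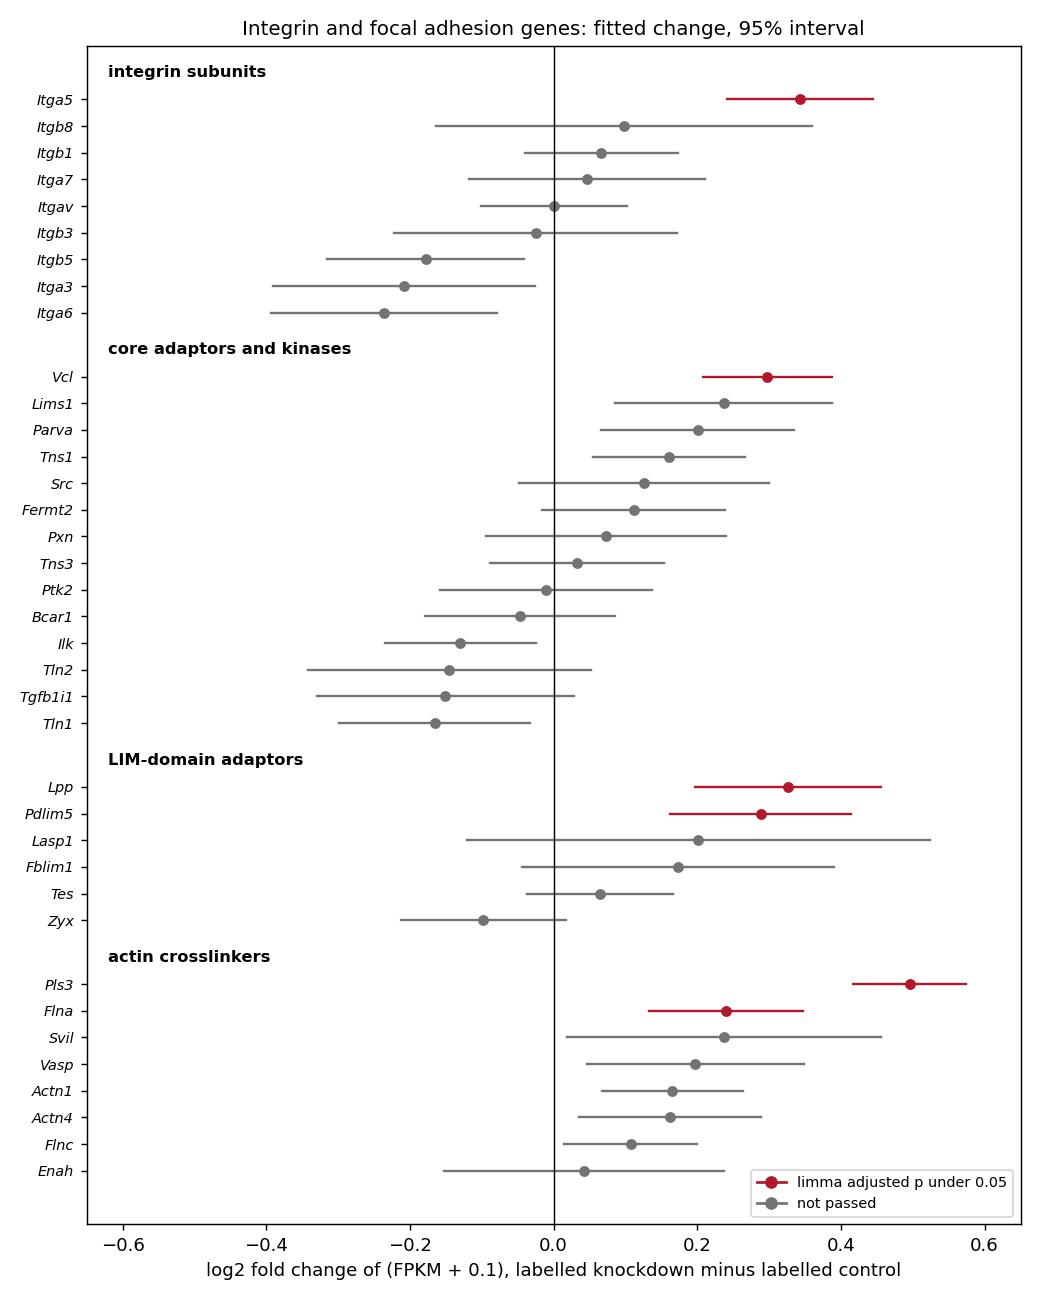
Fitted log2 fold change of log2(FPKM + 0.1) for the 37 tested members (x axis), labelled knockdown minus labelled control, by role, with 95% intervals from limma as bars. Red marks the 6 members with an adjusted p under 0.05, from Flna at 0.24 to Pls3 at 0.50; Itga6 has the lowest value, -0.24.

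Groups that did not overlap in FPKM were seen for 14 members in the higher direction and 7 in the lower one. Of all tested genes 28.9% did so, 13.3% in the higher and 15.6% in the lower direction. Those lower in FPKM in all 3 libraries labelled knockdown were the integrin subunits Itga6 and Itgb5, both talins, Ilk, Tgfb1i1 and Zyx. Their deposited counts, scaled to a common depth, overlapped between groups for Itga6, Tln1, Tgfb1i1 and Zyx, and not for Itgb5, Tln2 and Ilk. None of these 7 passed in limma.

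RefSeq promoter windows (GRCm38.p6, 250 bases before to 50 after the start) were found for 34 of the 43 members, 45 windows in all. They were searched on both strands for the CArG box, for GGAATG, the core of the TEAD element, and for TGANTCA, the AP-1 element. The CArG box occurred in 2 member windows, those of Vcl and Fermt2, and in 1.63% of all 32851 windows (1.34% of those of tested genes). GGAATG occurred in 11 member windows of 8 genes, and in 14.7% of all windows (12.1% of those of tested genes). Of the 6 called members Flna, Lpp, Pls3 and Vcl held GGAATG in at least 1 window, beside 1228 of the 8638 tested genes with windows. For Lpp it lay only in the window chr16:24721605-24721904, well inside the locus, and not in that of its upstream start. Windows of Pls3 and of Flnc overlap, so some matches are counted in more than 1 window. TGANTCA occurred in 5 member windows, none of a called member, and in 7.81% of all windows (5.12% of those of tested genes). No match of one element overlapped a match of another. A match is a string of letters and not a shown binding site.

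The 250 bases before the start are shown for Vcl and Fermt2, which hold the CArG box, and for the called genes Pls3, Flna and Itga5. Vcl rose and Fermt2 did not pass, and whether the element bears on either gene was not tested. Capitals mark matches: in Vcl the CArG box from position -227 and GGAATG from -143, in Fermt2 the CArG box from -204, in Pls3 CATTCC (the reverse complement of GGAATG) from -230 and GGAATG from -179, and in Flna CATTCC from -146. Positions are those of the first base, with -1 just before the start. Itga5 holds none of the 3 elements. The start used for Flna lies inside its locus. Windows run 5′ to 3′ along the gene's strand: Vcl chr14:20929148-20929397 (plus), Fermt2 chr14:45530066-45530315 (minus), Pls3 chrX:75875183-75875432 (minus), Flna chrX:74246535-74246784 (minus) and Itga5 chr15:103366792-103367041 (minus).
Vcl: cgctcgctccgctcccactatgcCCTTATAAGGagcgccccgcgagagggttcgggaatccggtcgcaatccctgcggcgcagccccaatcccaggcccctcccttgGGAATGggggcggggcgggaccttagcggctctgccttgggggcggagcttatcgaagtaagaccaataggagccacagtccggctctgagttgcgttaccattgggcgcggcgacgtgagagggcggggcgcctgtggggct
Fermt2: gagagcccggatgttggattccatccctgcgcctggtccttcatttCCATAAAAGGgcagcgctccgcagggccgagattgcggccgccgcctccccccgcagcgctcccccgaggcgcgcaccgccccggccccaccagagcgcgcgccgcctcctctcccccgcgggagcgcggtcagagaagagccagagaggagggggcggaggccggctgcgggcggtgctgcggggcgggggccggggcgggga
Pls3: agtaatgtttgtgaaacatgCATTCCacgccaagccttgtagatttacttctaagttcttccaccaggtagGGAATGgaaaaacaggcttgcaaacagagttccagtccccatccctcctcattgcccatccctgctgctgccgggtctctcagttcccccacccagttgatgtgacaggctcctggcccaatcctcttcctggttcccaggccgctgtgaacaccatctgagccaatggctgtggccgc
Flna: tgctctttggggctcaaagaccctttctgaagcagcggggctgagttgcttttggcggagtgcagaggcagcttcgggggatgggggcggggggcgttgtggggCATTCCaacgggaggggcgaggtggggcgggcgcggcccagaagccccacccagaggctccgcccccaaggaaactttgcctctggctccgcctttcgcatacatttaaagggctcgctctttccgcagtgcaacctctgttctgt
Itga5: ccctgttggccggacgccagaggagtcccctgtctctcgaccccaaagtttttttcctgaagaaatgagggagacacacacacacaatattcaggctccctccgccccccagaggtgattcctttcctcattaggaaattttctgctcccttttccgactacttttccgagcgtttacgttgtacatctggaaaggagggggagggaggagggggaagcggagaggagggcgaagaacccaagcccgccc

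Among the integrins the fibronectin receptor subunit Itga5 was the only one that passed. Itga5 (ENSMUSG00000000555, chr15:103344289-103366763 in mm10, minus strand) stood at 50.1, 50.8 and 49.5 FPKM against 38.8, 39.5 and 40.3 FPKM, where the first 3 values of such a pair are always the libraries labelled knockdown. The 3 libraries of each group lay within 2 FPKM of each other, and the gap between the groups was far wider. Means were 50.1 ± 0.653 and 39.5 ± 0.755 FPKM (SD, n = 3 each), and limma gave a log2 fold change of 0.34 (SE 0.04, adjusted p = 0.0132). Without single libraries the adjusted p ran from 0.0357 to 0.0672 in limma.

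Of the tested alpha chains of laminin receptors, Itga6 and Itga3 had negative fold changes in limma and Itga7 a positive one (log2 0.05, limma adjusted p = 0.729). Itga6, which pairs with beta 1 or beta 4, was at 72.5, 72.4 and 67.7 FPKM against 87.4, 87.7 and 75.9 FPKM. The third library was the lowest in both groups, and the groups still did not overlap in FPKM. Deposited counts of Itga6, scaled to a common depth, were 2567, 2524 and 2326 against 2914, 2994 and 2562, and overlapped. In limma the difference did not pass (log2 -0.24, SE 0.07, adjusted p = 0.1), nor did it in edgeR (adjusted p = 0.0705). DESeq2 called Itga6 lower (adjusted p = 0.0333). Itga3, which pairs with beta 1, was at 53.7, 55.0 and 52.1 FPKM against 54.8, 66.0 and 65.7 FPKM, so that control 1 lay with the libraries labelled knockdown. Its log2 fold change was -0.21 (adjusted p = 0.176) in limma and 0.02 in edgeR. Its deposited counts, scaled to a common depth, were 2512, 2392 and 2531 against 2465, 2553 and 2378, and the groups overlapped. For Itga3 the transcript length that counts and FPKM together imply ranged 1.34-fold over the libraries, against a median range of 1.05-fold for tested members.

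None of the chains of the vitronectin receptors passed. Itgav, the alpha chain shared by beta 3, beta 5 and beta 8, was at 68.9, 70.6 and 73.9 FPKM against 70.5, 71.8 and 71.1 FPKM. Its log2 fold change of 0.00037 had a 95% interval from -0.10 to 0.10. Itgb5 was at 26.3, 25.9 and 24.1 FPKM against 27.9, 28.7 and 29.7 FPKM, without overlap (log2 -0.18, SE 0.06, limma adjusted p = 0.137). Itgb3 averaged 12.9 against 13.1 FPKM and Itgb8, a chain used to activate latent TGF-beta, 4.32 against 4.03 FPKM, and both overlapped. Itgb1, the common beta chain and the most abundant integrin transcript, averaged 204.8 ± 8.10 against 195.5 ± 6.55 FPKM (adjusted p = 0.425). Its locus in the table runs over 523571 bases and takes in Nrp1, so fragments of that gene may bear on its value. The laminin-binding muscle subunit Itga7 averaged 18.4 and 17.8 FPKM.

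As shares of the summed FPKM of the 11 alpha subunits, Itga5 made up 19.0%, 19.0% and 18.8% in the libraries labelled knockdown against 14.3%, 13.97% and 14.9%. Itga6 made up 27.4%, 27.1% and 25.8% against 32.2%, 31.0% and 28.004%. The summed level itself was 264.9 ± 2.46 against 275.1 ± 6.70 FPKM, lower without overlap. In relative terms the shares of Itga5 and Itga6 differed more than this sum. Itga3, at 53.6 against 62.2 FPKM but with overlapping scaled counts, enters the sum and thereby every alpha share. Of the 4 beta subunits, Itgb1 held 82.8% ± 0.276 against 81.0% ± 0.653 and Itgb5 10.3% ± 0.139 against 11.9% ± 0.679. Shares within a sum are tied to each other, and transcript shares are not receptor shares.

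**Figure D2:**
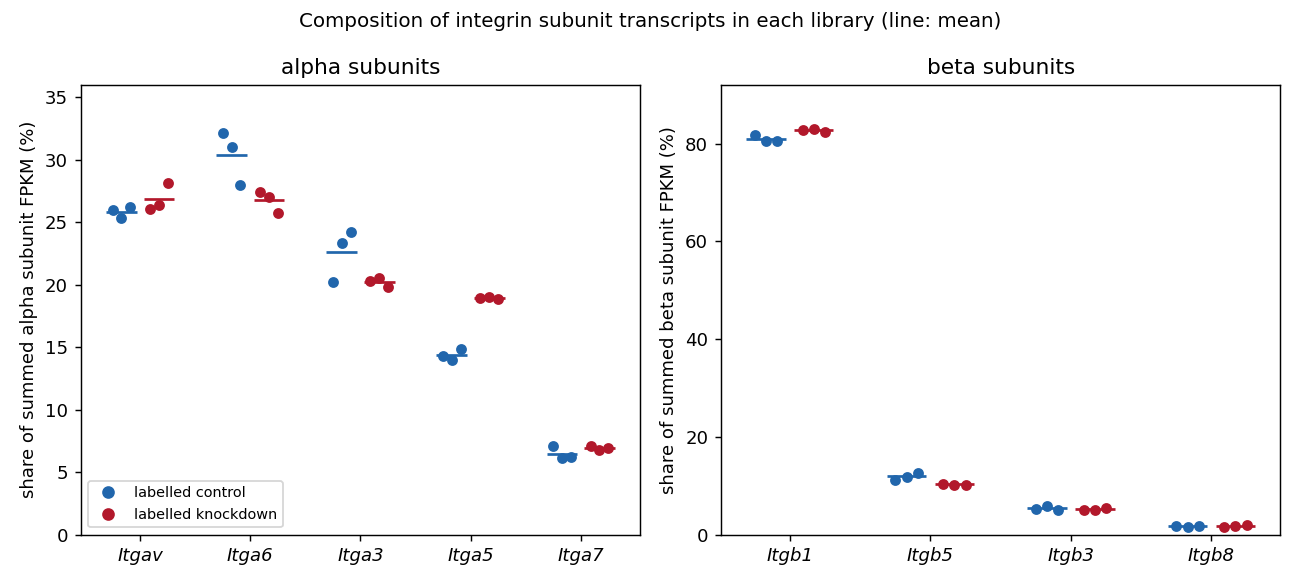
Share of each subunit in the summed FPKM of alpha subunits (left) and beta subunits (right), in percent, with 1 point per library and lines at group means. Subunits below 1% are left out; Itga5 is near 19% in all 3 libraries labelled knockdown and at 13.97% to 14.9% in those labelled control.

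The remaining 6 alpha subunits were too low to test. The collagen receptor subunits Itga1, Itga2 and Itga11 averaged 0.231 against 0.198, 0.0257 against 0.0361, and 0.345 against 0.268 FPKM, and Itga4 0.0102 against 0.021 FPKM. Itga8, a subunit of smooth muscle and mesangial cells, rested on 0, 0 and 3 fragments against 1, 0 and 11. Itga9 rested on 0, 1 and 9 fragments against 0, 0 and 5. For these 2 genes the replicate 3 libraries held most fragments in both groups, and a count of 0 allows up to 3 fragments.

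Of the core adaptors, vinculin rose. Vcl (ENSMUSG00000021823, chr14:20929433-21052508, plus strand), which links talin to actin and strengthens under load, stood at 120.2, 119.9 and 115.9 FPKM against 98.3, 96.4 and 94.8 FPKM. All libraries labelled knockdown lay above all labelled control by a wide margin. Means were 118.6 ± 2.38 and 96.5 ± 1.74 FPKM (log2 0.30, SE 0.04, limma adjusted p = 0.0141). Its promoter window, shown above, holds both the CArG box and GGAATG. Its locus overlaps that of Ap3m1 in the table, and overlaps of this kind also hold for Tln1, Ilk, Zyx, Actn4 and Itga7, so reads of a neighbour may enter their values.

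The talins, which join integrin tails to actin, did not share that direction. Tln1 was at 64.5, 66.1 and 70.1 FPKM against 73.5, 71.9 and 79.8 FPKM, lower without overlap but not called (log2 -0.17, limma adjusted p = 0.15). In edgeR its log2 fold change was -0.09 (adjusted p = 0.151), and its scaled counts overlapped between groups. Tln2 was lower by a similar ratio at a far lower level, 7.42 ± 0.164 against 8.22 ± 0.465 FPKM (adjusted p = 0.353). The kindlin gene Fermt2, whose product activates integrins together with talin, averaged 52.2 against 48.3 FPKM (log2 0.11, limma adjusted p = 0.276), with overlap. Its promoter window, shown above, holds a CArG box.

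The 3 proteins of the ILK complex (ILK, PINCH and parvin) differed in direction. Lims1, which encodes PINCH, was at 73.9, 73.3 and 66.5 FPKM against 62.9, 62.1 and 56.3 FPKM (log2 0.24, SE 0.06, limma adjusted p = 0.091). Parva was at 55.3, 53.4 and 48.8 FPKM against 45.3, 46.6 and 44.9 FPKM (log2 0.20, adjusted p = 0.102). Ilk was at 85.8, 91.7 and 85.1 FPKM against 95.6, 97.6 and 94.1 FPKM (log2 -0.13, adjusted p = 0.15). None of the 3 overlapped between groups, and edgeR called Lims1 (adjusted p = 0.011) and Parva (adjusted p = 0.00413) but not Ilk (log2 -0.03, adjusted p = 0.621).

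Among scaffold and signalling members the tensin gene Tns1 came closest to the threshold, at 47.8, 47.3 and 47.7 FPKM against 41.6, 42.1 and 44.1 FPKM (log2 0.16, SE 0.05, limma adjusted p = 0.0992; edgeR adjusted p = 0.00751). Its paralogue Tns3 averaged 53.4 against 52.2 FPKM. Focal adhesion kinase (Ptk2) had a log2 fold change of -0.01 with a 95% interval from -0.16 to 0.14, and its substrate scaffold Bcar1 one of -0.05 with an interval from -0.18 to 0.08. The kinase Src averaged 16.0 against 14.6 FPKM and paxillin (Pxn) 22.6 against 21.5 FPKM. The paxillin relative Tgfb1i1 (Hic-5), a smooth muscle adaptor, averaged 16.5 ± 0.240 against 18.4 ± 1.56 FPKM. No kinase passed.

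Of the 6 LIM-domain adaptors 2 rose. Lpp (ENSMUSG00000033306, chr16:24391612-24992576, plus strand), a zyxin relative enriched in smooth muscle, stood at 48.9, 48.0 and 46.4 FPKM against 39.5, 39.0 and 35.9 FPKM (log2 0.33, SE 0.05, limma adjusted p = 0.0286). The call was lost without any single library, with adjusted p between 0.0555 and 0.1. Pdlim5 (ENSMUSG00000028273, chr3:142239586-142395696, minus strand), a PDZ and LIM protein that binds alpha-actinin, stood at 57.7, 57.7 and 52.3 FPKM against 46.4, 45.2 and 45.6 FPKM (log2 0.29, SE 0.05, limma adjusted p = 0.0382). In both genes the lowest library labelled knockdown, replicate 3, still exceeded every library labelled control.

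Zyxin itself (Zyx), which repairs strained actin bundles, lay on the other side, at 42.9, 43.3 and 45.9 FPKM against 46.6, 46.4 and 48.5 FPKM (log2 -0.10, SE 0.05, limma adjusted p = 0.287). Tes averaged 76.9 against 73.5 FPKM and Fblim1 (migfilin) 27.7 against 24.5 FPKM, which edgeR called (adjusted p = 0.0162). Lasp1 had wide spread in FPKM, at 96.7, 73.3 and 94.7 FPKM against 64.6, 86.2 and 79.3 FPKM. Its scaled counts of 2013, 1963 and 2097 against 1920, 1872 and 2114 were far closer together, and the implied transcript length ranged 1.43-fold, the widest of the tested members.

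The actin crosslinkers held the largest and the most abundant changes. Pls3 (ENSMUSG00000016382, chrX:75785654-75875182, minus strand), which bundles actin filaments, stood at 155.8, 156.5 and 157.3 FPKM against 110.6, 111.2 and 111.2 FPKM. Within a group the 3 libraries were almost equal in FPKM, while scaled counts ran from 4688 to 4798 against 3450.5 to 3500. Means were 156.5 ± 0.745 and 111.0 ± 0.342 FPKM (1.41-fold, log2 0.50, SE 0.03, limma adjusted p = 0.00145). For Pls3 edgeR gave a smaller log2 fold change of 0.46 on fragments (adjusted p = 4.45e-06).

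Flna (ENSMUSG00000031328, chrX:74223461-74249820, minus strand), which crosslinks actin and binds beta integrin tails, was the most abundant of the 43. It stood at 302.9, 300.1 and 330.3 FPKM against 266.9, 260.6 and 262.3 FPKM (log2 0.24, SE 0.05, limma adjusted p = 0.0414). In FPKM knockdown 3 lay apart from the other two, but the scaled counts were 23142, 23281 and 23123 against 19220, 19020 and 18907. On fragments edgeR gave log2 0.30 (adjusted p = 4.17e-06). The limma call was lost without any single library (adjusted p from 0.0613 to 0.125), with no filter, with quantile normalization, without the trend and with the replicate number as a block (adjusted p = 0.0575). The muscle filamin Flnc differed less, 60.4 ± 0.411 against 56.1 ± 0.641 FPKM, without overlap (log2 0.11, SE 0.04, adjusted p = 0.17).

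The other crosslinkers were higher on average without passing. The alpha-actinin genes were at 100.9, 97.6 and 103.3 against 88.8, 88.2 and 92.04 FPKM for Actn1 (log2 0.17, SE 0.04, limma adjusted p = 0.0787; edgeR adjusted p = 0.00594) and at 171.9 ± 10.2 against 153.5 ± 5.59 FPKM for Actn4 (log2 0.16, adjusted p = 0.142). Neither overlapped between groups. Vasp, which promotes actin filament elongation, averaged 29.6 against 25.8 FPKM (adjusted p = 0.135), while its relative Enah averaged 28.8 against 27.9 FPKM and overlapped. Svil, a membrane-bound villin relative, averaged 12.1 against 10.2 FPKM (adjusted p = 0.195). Of the members near the threshold, Lpp, Pdlim5 and Flna lay just inside it (adjusted p = 0.0286, 0.0382 and 0.0414), and Actn1 and Lims1 just outside (0.0787 and 0.091).

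**Figure D3:**
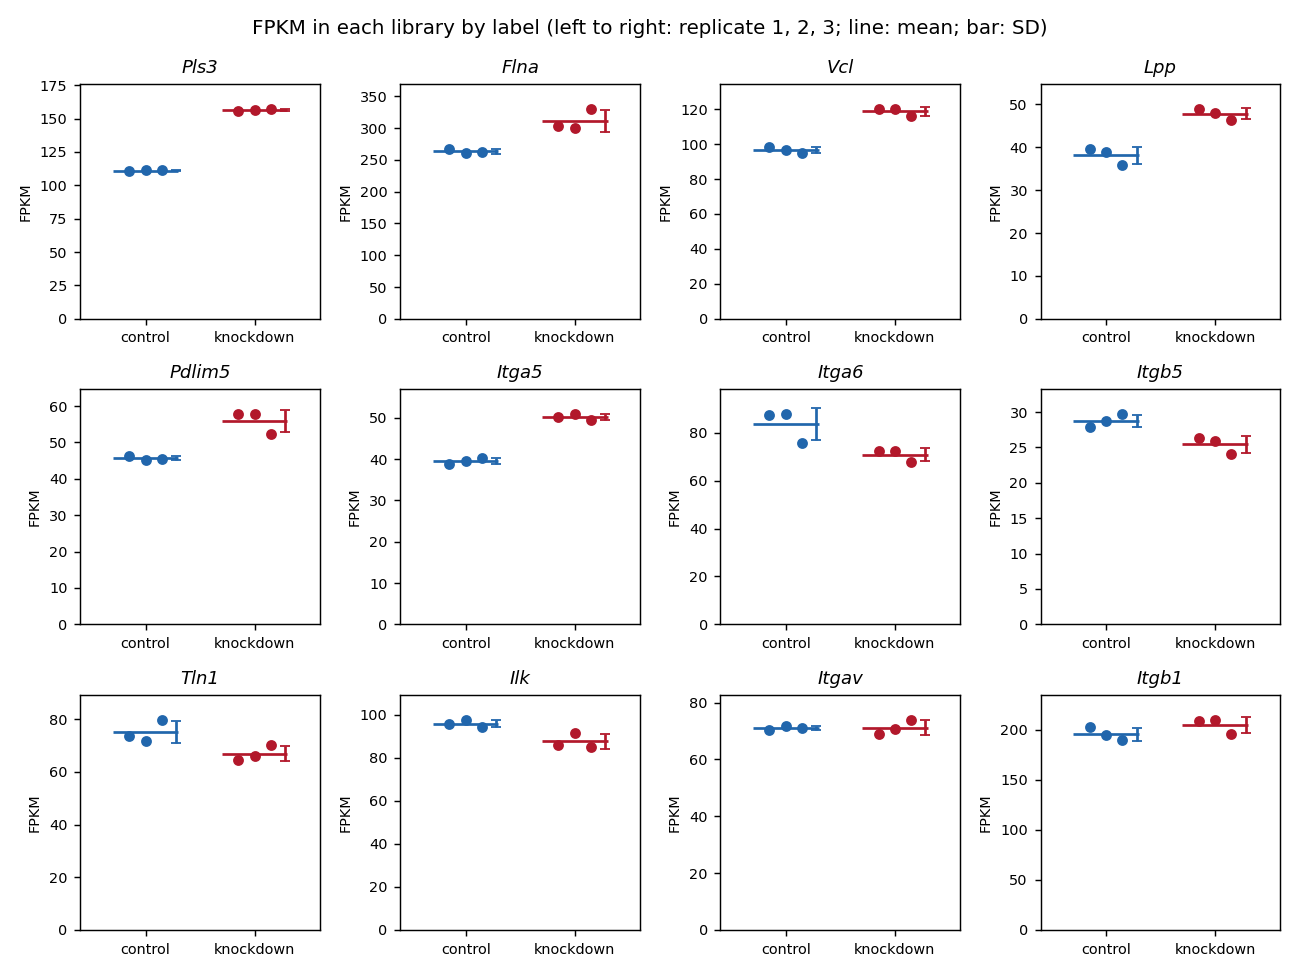
FPKM in each of the 6 libraries for 12 members, with the 3 libraries labelled control on the left and the 3 labelled knockdown on the right of each panel, a line at the mean and a bar for the SD. The first 6 panels are the called genes, all without overlap; Itgav and Itgb1 in the last panels overlap.

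To compare related members directly, the ratio of their FPKM was taken in each library for 11 pairs. The smallest p that 3 against 3 libraries allow in an exact two-sided permutation test is 0.1, which 6 pairs reached (Benjamini-Hochberg adjusted exact p = 0.183), so no pair could pass. Lpp against Zyx moved furthest, with a log2 ratio of 0.12 ± 0.0905 in the libraries labelled knockdown and -0.31 ± 0.11 in those labelled control, a difference of 0.42. Itga5 against Itgav differed by 0.34, Flna against Flnc by 0.13 and Tns1 against Tns3 by 0.13, all without overlap. Itgb5 against Itgb1 (-0.24) and Tgfb1i1 against Pxn (-0.22) were lower without overlap. The alpha-actinin pair (0.0036) and the talin pair (-0.02) hardly moved, which describes a shared direction within each pair.

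**Figure D4:**
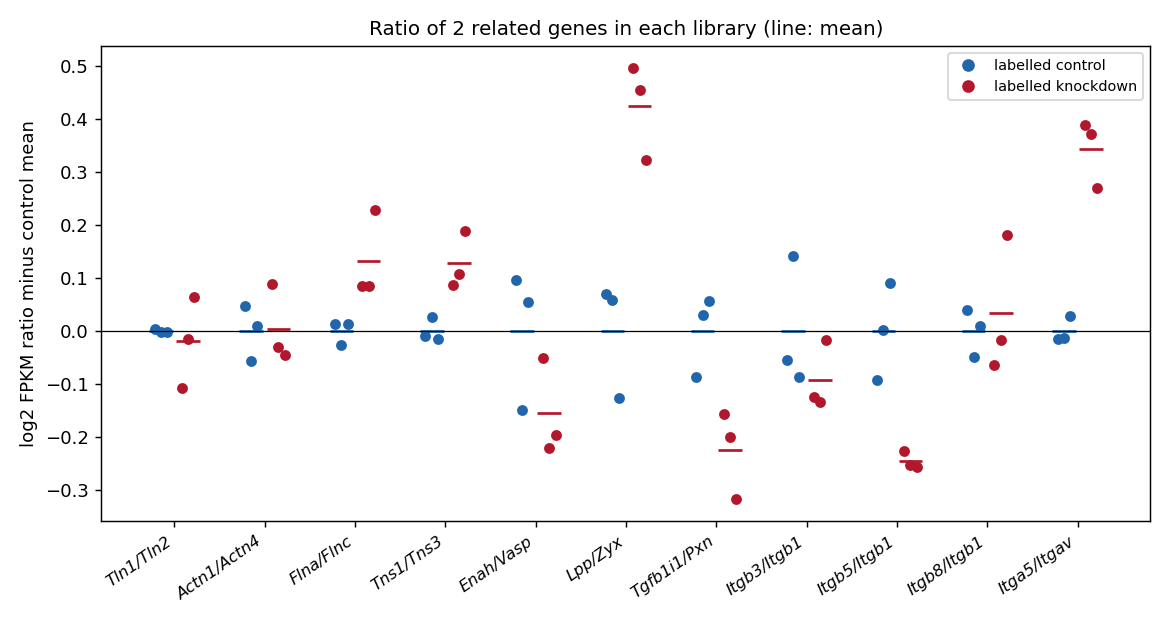
Log2 ratio of the FPKM of 2 related genes in each library, less the mean of the libraries labelled control (y axis), for the 11 pairs (x axis); lines are group means. Lpp/Zyx and Itga5/Itgav lie highest, and Actn1/Actn4 and Tln1/Tln2 stay near 0.

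Other genes of the adhesion pathway were read from lists chosen with earlier results of these data known, so the shares below only describe these lists. Of 24 tested matrix ligands of integrins 3 rose (12.5%, beside 1.83% of all tested genes), 0 fell and 21 did not pass. These were thrombospondin 1 (Thbs1, 243.7 ± 4.23 against 134.9 ± 0.931 FPKM, log2 0.85, limma adjusted p = 6.25e-05), Ctgf (34.4 ± 1.26 against 14.7 ± 3.47 FPKM, log2 1.24) and tenascin C (Tnc, 8.16 ± 0.463 against 5.02 ± 0.376 FPKM, log2 0.69). Fibronectin (Fn1), the ligand of the receptor that contains Itga5, averaged 355.5 ± 7.95 and 329.5 ± 12.0 FPKM (log2 0.11, limma adjusted p = 0.171), a difference past the threshold in edgeR (adjusted p = 0.0157) and DESeq2 (adjusted p = 0.00188). The median log2 fold change of the ligands was 0.05, and edgeR called 6 of them higher and 1 lower, where it called 5.45% and 4.5% of all genes. The lower one was Spp1, at 1248.9 ± 32.9 against 1414.1 ± 65.7 FPKM without overlap (log2 -0.18, limma adjusted p = 0.0783). Its adjusted p was 0.00813 in edgeR and 4.68e-05 in DESeq2. Of the 24 ligands 19 averaged at least 10 FPKM, where limma called 2.57% of tested genes as higher.

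Of 31 further actin crosslinking and assembly genes 4 rose (12.9%, beside 1.83% of all tested genes), 0 fell and 27 did not pass, with a median log2 fold change of 0.11. For the same list edgeR called 15 higher and 0 lower, beside 5.45% and 4.5% of all genes. Of the 31 genes 29 averaged at least 10 FPKM, a level at which limma called 2.57% of tested genes as higher. Among the 4 were the actin-severing protein gene Dstn (219.4 ± 3.37 against 154.1 ± 6.13 FPKM, log2 0.51, limma adjusted p = 0.00353), the non-muscle myosin Myh9 (log2 0.31) and Synpo2 (log2 0.74). Of 47 further adhesion adaptors and signalling genes Csrp1 rose (93.3 ± 2.18 against 73.3 ± 2.98 FPKM, log2 0.35, limma adjusted p = 0.0146) and 46 did not pass, with a median of 0.0055. That share of 2.13% stood beside 1.83% of all tested genes called higher and 3.44% called in either direction. Of 46 tested by edgeR 9 were called higher and 1 lower, beside 5.45% and 4.5% of all genes. Limma called 0 of 6 further integrin subunits (2 at an unadjusted p under 0.05, and 0 by edgeR). The most abundant was Itgb7, at 25.3 ± 1.03 against 22.8 ± 0.826 FPKM (adjusted p = 0.194). Itgb4, the partner of Itga6 in hemidesmosomes, averaged 1.06 against 0.487 FPKM (limma adjusted p = 0.152), with 34, 44 and 30 fragments against 32, 33 and 30 (edgeR log2 0.35, adjusted p = 0.354).

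In the deposited table of long noncoding transcripts, 48 transcripts are tied to a member by name or position, and 15 of them reached 0.1 FPKM in at least 3 libraries. BC024571, which shares exons with Itga6 on the same strand, was at 20.9, 16.2 and 23.6 FPKM against 23.8, 24.5 and 26.1 FPKM. It was lower without overlap, as Itga6 was in FPKM, and fragments from shared exons cannot be assigned to either with certainty. AK085972, which shares exons with Svil, was at 0.430, 0.186 and 0.323 FPKM against 0.169, 0.0893 and 0.0865 FPKM, higher without overlap. Antisense transcripts above that level lay only opposite Lpp (1110054M08Rik, 2 transcripts), at means of 0.648 against 0.58 and 0.675 against 1.24 FPKM, with overlap. The noncoding transcripts were not tested, and without a stated strand setting reads of Lpp and its antisense partner cannot be told apart.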

How the data were processed

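RNA-seq libraries came from ribosome-depleted total RNA with a stranded kit, per the labels' protocols. Per the submitters' processing notes the tools were cutadapt, HISAT2 2.0.4, Cufflinks and Cuffdiff 2.2.1. Both mm10 and mm9 are listed as builds, and the annotation release or strand setting was not given in the sources used here. FPKM values were deposited by the authors per gene, and for noncoding RNA per transcript. The expected counts deposited beside them are fragments multiplied by a constant per library; divided by it, 90.1% to 90.4% of values above 0 lay within 0.01 of a whole number. Starts were raised by 1, after which 6261 gene starts equal those of GRCm38 (472 without), so coordinates are called mm10.

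The table's 22565 rows were summed by symbol. All members, roles, pathway lists and named genes were chosen with earlier results of these data known. Full statistics are given for called members and the 3 of lowest p in each role, for genes next to the threshold, and for up to 4 called genes in each pathway list; other members are described by role. The main test was limma 3.58.1 with a trend (R 4.3.3) on log2(FPKM + 0.1), which understates changes of low genes, with group as the only term and Benjamini-Hochberg adjustment over 11612 genes. The alternatives, edgeR 4.0.16 and DESeq2 1.42.0, used rounded fragments. Other alternatives changed the pseudocount, the filter, the variance model or the scaling, added a replicate block, or left out libraries. The 6 noncoding count columns were not used. Scripts were tested on simulated data. Intervals are at 95%. No libraries of a group were copies of each other (chi-square per gene of 2.44 to 6.01). No protein sequences were used, and 1 called gene of the pathway lists is not reported here.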

Additional observations from a re-analysis of the deposited data

How the results depend on the processing

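Of the 43 members, 6 were called higher in the main test, and no limma or edgeR setting called a member lower. The count of members called higher was 13 with edgeR, with or without a filter, 12 with DESeq2, 2 without the trend and 1 without both replicate 3 libraries. Leaving out single libraries gave 1 to 4. DESeq2 called 1 member lower. Over all genes the count of 400 became 1150 with edgeR (1168 with no filter), 723 with DESeq2 and 144 without the trend. It was 76 without both replicate 3 libraries and 44 to 178 without single libraries. Fewer libraries lower the power of the fit, and no other cause was tested.

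With the replicate number as a block 243 genes were called and 4 members, Itga5, Lpp, Pls3 and Vcl. The labels do not say what a number stands for, and deviations from group means correlated across genes at 0.037, -0.004 and 0.1 for numbers 1, 2 and 3, so that pairing was not taken to hold for all numbers, although both replicate 3 libraries shared the difference described above.

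The integrin median log2 fold change of 0.00037 moved to 0.0524 with DESeq2, 0.054 with edgeR (0.0507 with no filter), 0.0245 with median centring, -0.025 with no filter and -0.0279 without both replicate 3 libraries. It ran from -0.0274 to 0.0278 without single libraries. The adaptor median of 0.0923 moved to 0.116 with median centring, and the crosslinker median stayed within the replicate spread in all 19 settings. For the 12 members with full statistics, 180 of 228 values kept their side of the threshold, 38 lost the call and 10 gained one, with no change of sign. For the 11 ratios, 88 of 88 alternatives moved by less than the replicate spread. The 6 untested subunits had at most 24 fragments in a library; edgeR tested 2 of them, Itga1 and Itga11, and called neither.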
